A study of Mus musculus with 12 samples.

Results

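The genes described here are 3 precursors of the peptides that striatal spiny neurons release and 6 receptors for such peptides, in the striatum of adult mice. They were chosen by gene name: Penk, Pdyn and Tac1 among the precursors, Oprm1, Oprd1, Oprk1 and Oprl1 among the opioid receptors, and Tacr1 and Tacr3 among the tachykinin receptors. These 9 genes were among 57132 features in the count table, and all 9 were among the 13902 features with enough counts to be tested. RNA was sequenced from 12 libraries, 6 labelled TAAR5-KO and 6 labelled TAAR5-WT (below, WT), to compare the striatum of mice lacking the trace amine-associated receptor 5 with that of wild-type littermates. The mice were C57Bl/6 animals of both sexes, 10 months old, for which no treatment was named, and the tissue was a coronal slice through the striatum from which the cortex had been removed. The deleted allele was not described in the sources used here, and neither the sex nor the animal of a single library was given. The p-values of genotype differences therefore measure the spread between the libraries of a genotype. Those of the order of levels and of correlations across the 12 libraries pool both labels.

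Spiny neurons are the projection neurons of the striatum and use GABA together with neuropeptides. Neurons of the indirect pathway carry the D2 dopamine receptor and release enkephalin, whereas those of the direct pathway carry the D1 receptor and release dynorphin and substance P. Enkephalins act mainly on delta and mu opioid receptors and dynorphins on the kappa receptor, all of which couple to inhibitory G proteins, and tachykinins such as substance P act on excitatory receptors.

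The coding sequence of each precursor holds its peptides as short stretches, most of them between codons for pairs of basic residues at which prohormone convertases cut. They are shown because they are what sets enkephalin, dynorphin and tachykinin precursors apart. Capitals mark the codons of the peptide and lower case the 6 bases on either side, read on the coding strand from GRCm39 with the GENCODE M39 canonical transcript. In Penk, on the minus strand of chromosome 4, 7 copies lay in exon 2, within a coding sequence for 268 residues. The first was at chr4:4134334-4134348 and the last at chr4:4133848-4133862.
Penk, copy 1, Met-enkephalin: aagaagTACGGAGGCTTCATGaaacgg
Penk, copy 2, Met-enkephalin: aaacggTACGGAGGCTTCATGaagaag
Penk, copy 3, Met-enkephalin: aagaggTATGGCGGCTTCATGaagaag
Penk, copy 4, Met-enkephalin: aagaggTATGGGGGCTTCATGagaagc
Penk, copy 5, Met-enkephalin: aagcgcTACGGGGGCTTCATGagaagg
Penk, copy 6, Leu-enkephalin: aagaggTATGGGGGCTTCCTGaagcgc
Penk, copy 7, Met-enkephalin: aaaagaTACGGGGGCTTTATGcggttc
Pdyn, on the minus strand of chromosome 2, held 3 copies in exon 4, from chr2:129530158-129530172 to chr2:129529993-129530007, each the start of a longer opioid peptide.
Pdyn, copy 1, Leu-enkephalin: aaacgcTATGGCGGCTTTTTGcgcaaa
Pdyn, copy 2, Leu-enkephalin: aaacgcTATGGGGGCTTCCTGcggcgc
Pdyn, copy 3, Leu-enkephalin: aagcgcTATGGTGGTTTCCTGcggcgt
Tac1, on the plus strand of chromosome 6, held substance P in exon 2 at chr6:7556732-7556764 and neurokinin A in exon 4 at chr6:7559101-7559130.
Tac1, substance P: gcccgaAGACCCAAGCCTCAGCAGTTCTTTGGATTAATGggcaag
Tac1, neurokinin A: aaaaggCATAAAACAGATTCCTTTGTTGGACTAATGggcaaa
Thus Penk held the codons of Met-enkephalin 6 times and of Leu-enkephalin once, Pdyn those of Leu-enkephalin 3 times, and Tac1 those of 2 tachykinins with no enkephalin. Among the 7 copies in Penk, 5 had a basic pair on both sides, as had all 3 in Pdyn. Copies 4 and 7 of Penk had none after the core and begin longer peptides that extend Met-enkephalin.

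Total counts per library ranged from 11269915 to 34824450, of which 64.3% to 88.1% were ribosomal RNA although a depletion kit had been used, leaving 1819907 to 6399188 counts for all other features. The counts of Taar5 were few and overlapped, with 1 to 6 in the libraries labelled TAAR5-KO and 0 to 2 in those labelled WT. They were not lower under TAAR5-KO and are too few to check the labels, so genotypes are named here as labels. The markers of spiny neurons were present in every library, and 1 library labelled WT, NK11, stood apart in their sum. In NK11 6 spiny neuron markers (Ppp1r1b, Rgs9, Pde10a, Bcl11b, Foxp1 and Rarb) summed to 134 CPM (counts per 1000000, after TMM scaling of the library sizes) against 213 to 297 in the other 11 libraries. The 6 pituitary markers, Gh and Prl among them, summed there to 56.1 CPM against 0.313 to 17.4, and the 6 hypothalamic markers to 4.21 CPM against 0.162 to 2.19. The genotype difference of each of the 9 genes is therefore given with and without NK11. Astrocyte markers (5 genes) summed to 130 to 172 CPM in the libraries labelled TAAR5-KO and 183 to 204 in those labelled WT, with no overlap. Choroid plexus markers (5 genes) summed to 2.60 to 8.02 CPM in NK1, NK2, NK3 and NK6, labelled TAAR5-KO, and 3.51 in NK12, labelled WT. In every other library they summed to 112 to 467 CPM. Cortical pyramidal neuron markers (6 genes) summed to 25.3 to 94.1 CPM under TAAR5-KO and 31.5 to 103 under WT. The part of such differences in tissue content in the results below was not tested.

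Penk was by far the most abundant of the 9 genes. Per kilobase of exon it stood at 48.4 ± 7.78 CPM (SD over 12 libraries), rank 42 among the 13902 features tested. Tac1 followed at 3.23 ± 0.821 CPM per kilobase and Pdyn at 1.77 ± 0.465. Within a library, Penk exceeded Tac1 15.3-fold (12.4-fold to 19.8-fold) and Tac1 exceeded Pdyn 1.82-fold (1.32-fold to 2.54-fold). Pdyn exceeded Oprl1, the highest receptor per kilobase, 3.35-fold (1.90-fold to 8.06-fold). Each of these 3 orders held in 12 of 12 libraries (two-sided exact sign-flip permutation test, p = 0.00130 after Benjamini-Hochberg adjustment over 8 neighbouring pairs). The unadjusted p of each, 0.000488, is the smallest this test can give with 12 libraries. The genes were ordered by their means in these same libraries, so these p-values do not test an order set beforehand.

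The 6 receptors lay close together, from 0.521 ± 0.108 CPM per kilobase for Oprl1, the nociceptin receptor, down to 0.210 ± 0.0704 for Oprm1, the mu receptor. Between them came Oprk1, the kappa receptor, at 0.476 ± 0.137, Oprd1, the delta receptor, at 0.351 ± 0.0837, Tacr1, the substance P receptor, at 0.277 ± 0.0635, and Tacr3, the neurokinin B receptor, at 0.228 ± 0.0703. With all 12 libraries, no pair of neighbours among them passed an adjusted p of 0.05. The adjusted p of the same exact test was 0.227 for Oprl1 over Oprk1, 0.0625 both for Oprk1 over Oprd1 and for Oprd1 over Tacr1, 0.161 for Tacr1 over Tacr3 and 0.647 for Tacr3 over Oprm1. When NK1, NK5, NK10 or NK12 was left out, 4 of the 8 neighbouring pairs passed instead of 3. Read counts of the receptors were low, 4 to 129 per library, against 647 to 3114 for Penk. The order depends on the merged length of all annotated exons, 9151 bases for Oprk1, 8037 for Oprm1 and 3753 for Oprl1. In CPM not divided by length, Oprk1 (means 4.94 under TAAR5-KO and 3.78 under WT) stood above Oprl1 (1.97 and 1.94).

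**Figure D1:**
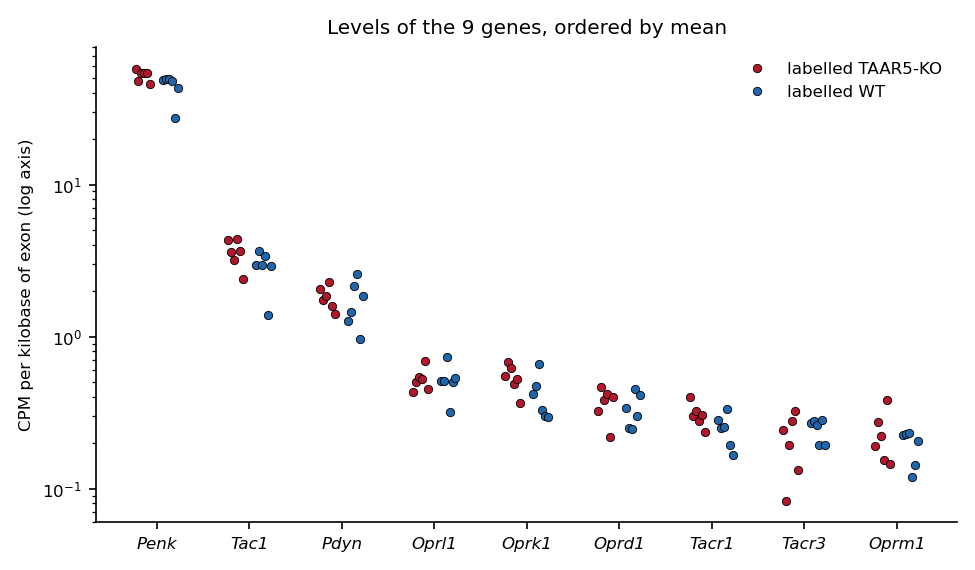
Level of each of the 9 genes in each of the 12 libraries, in CPM per kilobase of exon on a log axis, ordered by mean, with red points for libraries labelled TAAR5-KO and blue points for those labelled WT. Penk (mean 48.4) stands above Tac1 (3.23) and Pdyn (1.77), and the 6 receptors overlap between 0.0831 and 0.730.

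Of the summed precursor level per kilobase, Penk made up 90.7% ± 1.20 in the libraries labelled TAAR5-KO and 90.7% ± 1.23 in those labelled WT (SD, n = 6 each). Tac1 made up 6.14% ± 0.916 and 5.79% ± 0.727, and Pdyn 3.14% ± 0.376 and 3.48% ± 0.904. Among the 4 opioid receptors, Oprl1 and Oprk1 took the larger shares per kilobase, which depend on the same exon lengths. Oprl1 made up 31.6% ± 4.22 in libraries labelled TAAR5-KO and 35.3% ± 5.03 in those labelled WT, and Oprk1 32.3% ± 4.11 and 27.9% ± 5.40. Oprd1 made up 22.6% ± 5.92 and 23.7% ± 8.40, and Oprm1 13.5% ± 4.00 and 13.1% ± 2.22. All of these shares overlapped between the labels.

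None of the 9 genes was called between the genotypes. The edgeR likelihood ratio test, with p-values adjusted over all features and a threshold of 0.1, called 0 of the 9, against 1.65% of all features tested. At an unadjusted p under 0.05 it passed 1 of the 9, Oprk1, against 11.9% of all features. The edgeR quasi-likelihood test also called 0, and so did DESeq2, which gave an adjusted p for only Penk (0.285) and Tac1 (0.432). The groups overlapped for each of the 9 genes, against 1.01% of all features with no overlap. The fitted log2 fold change of labelled TAAR5-KO over labelled WT was above 0 for 8 of the 9 and below 0 for Tacr3, but all 9 were below 0 with library size as the only scaling. That scaling moved the median of all features from -0.01 to -0.49, and relative to this median 8 of the 9 were again above and Tacr3 below. The median over the 9 genes was 0.22, and 48.9% of all features had a value above 0. In bulk tissue, fewer cells of a type and less RNA per cell cannot be told apart.

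**Figure D2:**
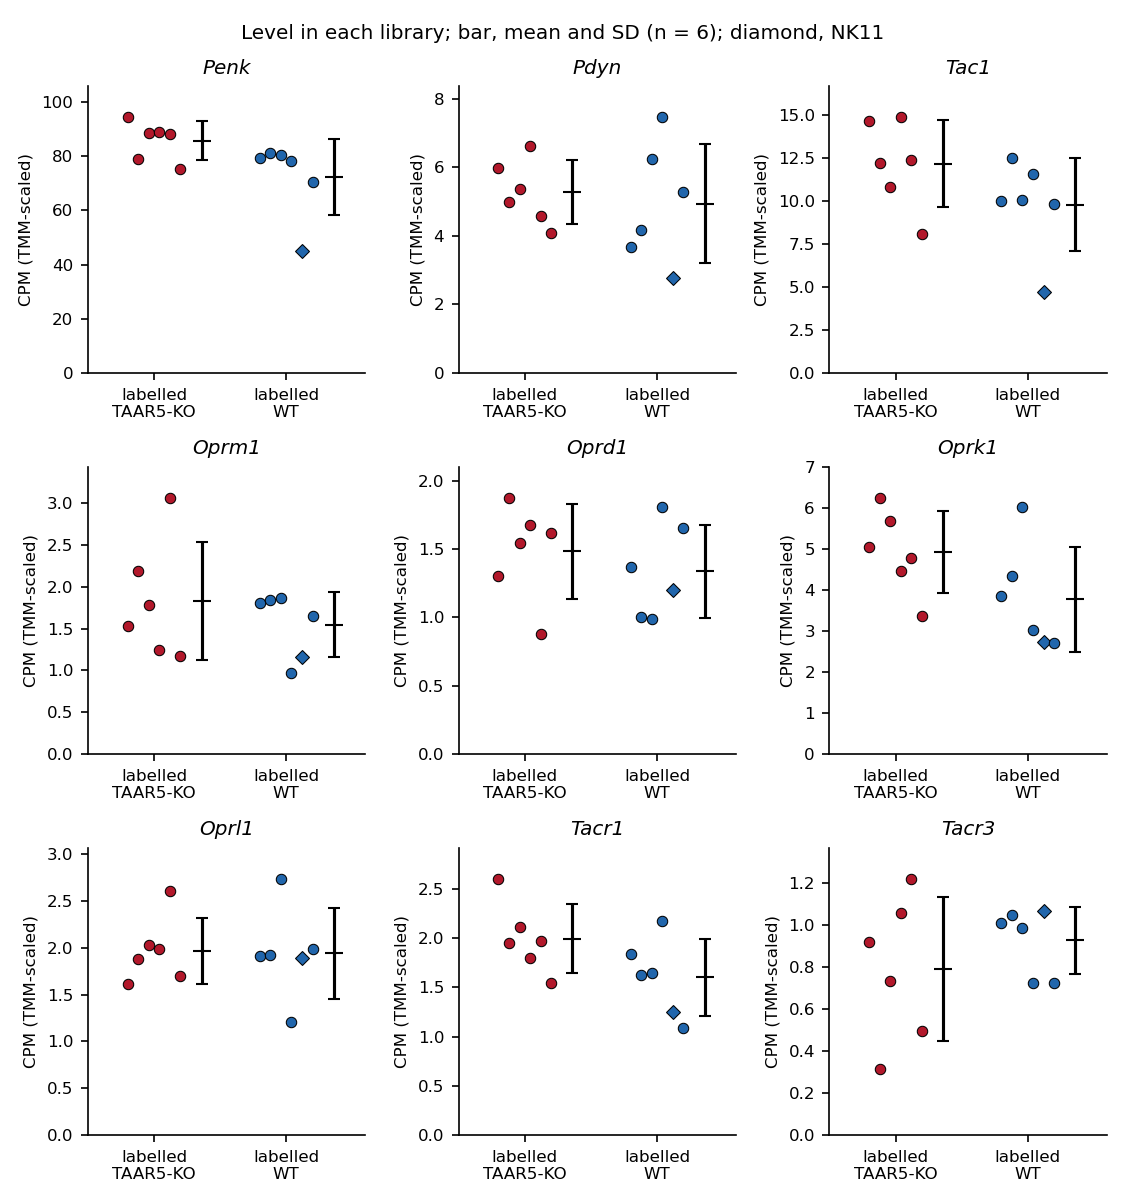
Level of each gene in each library in CPM after TMM scaling, with the mean and SD of each label beside the points (n = 6) and the library NK11 as a diamond. The labels overlap for all 9 genes, and NK11 is lowest of the 12 libraries for Penk (44.9), Pdyn (2.77) and Tac1 (4.72).

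Penk, the enkephalin precursor (chr4:4133531-4138819, minus strand), ranged from 75.3 to 94.5 CPM with a median of 88.4 in the libraries labelled TAAR5-KO, and from 44.9 to 81.3 with a median of 78.7 in those labelled WT. In this scaling, 4 libraries labelled TAAR5-KO lay above all those labelled WT, and NK11 and 1 other library labelled WT lay below all those labelled TAAR5-KO. The log2 fold change was 0.24 (SE 0.13, 95% interval -0.01 to 0.50, adjusted p = 0.451 by the edgeR likelihood ratio test). Without NK11 it was 0.14 (SE 0.10, adjusted p = 0.722), since NK11 stood at 44.9 CPM against 77.9 ± 4.35 in the 5 other libraries labelled WT.

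Tac1, the precursor of substance P and neurokinin A (chr6:7554879-7565834, plus strand), ranged from 8.07 to 14.9 CPM with a median of 12.3 under the label TAAR5-KO and from 4.72 to 12.5 with a median of 10.0 under WT. The lower end was again NK11, and 2 libraries labelled TAAR5-KO lay above all those labelled WT. The difference came to 0.32 on the log2 scale (SE 0.19, 95% interval -0.05 to 0.68, edgeR adjusted p = 0.522), and 0.16 (SE 0.15, adjusted p = 0.802) without NK11.

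Pdyn, the dynorphin precursor (chr2:129528485-129541764, minus strand), ranged from 4.07 to 6.64 CPM with a median of 5.18 under TAAR5-KO and from 2.77 to 7.48 with a median of 4.74 under WT. Both the highest and the lowest library were labelled WT, so that the 6 libraries labelled TAAR5-KO lay inside their range. The log2 fold change was 0.13 (SE 0.19, 95% interval -0.25 to 0.51, edgeR adjusted p = 0.861) and 0.01 (SE 0.18, adjusted p = 0.996) without NK11, while without NK10, the highest library, it was 0.27. With the share of ribosomal RNA as a covariate it was 0.0054 (SE 0.19, edgeR adjusted p = 0.996). The 3 precursors summed to 57.9 ± 5.26 CPM per kilobase under TAAR5-KO and 48.9 ± 9.69 under WT. The mean log2 difference of this sum was 0.27, and 0.13 without NK11.

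**Figure D3:**
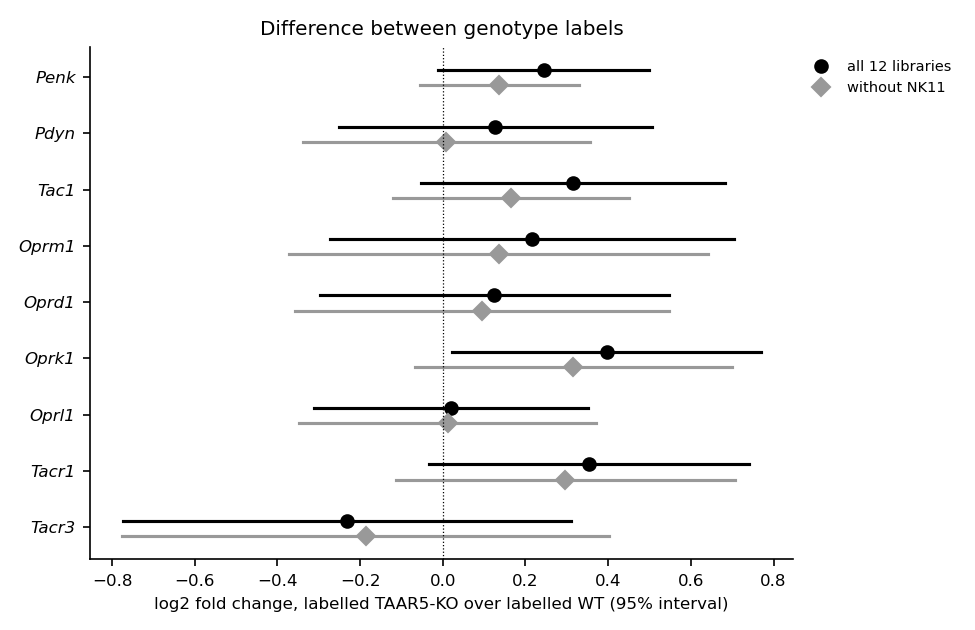
Fitted log2 fold change of each gene, label TAAR5-KO over label WT, with its 95% interval, from all 12 libraries (black circles) and without NK11 (grey diamonds). With all libraries, only the interval of Oprk1 (0.02 to 0.77) lies off 0, and without NK11 all 9 span it, while with library size as the only scaling all 9 values, not drawn, are below 0.

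Oprk1, the receptor for dynorphins (chr1:5658689-5676354, plus strand), ranged from 3.37 to 6.25 CPM with a median of 4.92 under TAAR5-KO and from 2.72 to 6.02 with a median of 3.44 under WT. In this scaling, 3 libraries labelled WT lay below all those labelled TAAR5-KO, while another stood at 6.02, below only 1 library. The log2 fold change was 0.40 (SE 0.19, 95% interval 0.02 to 0.77, unadjusted p = 0.0389 and adjusted p = 0.383 by the edgeR likelihood ratio test). It was 0.32 (SE 0.20, adjusted p = 0.667) without NK11 and 0.23 (SE 0.18, adjusted p = 0.743) with the share of ribosomal RNA as a covariate. Oprk1 also moved with that share across the 12 libraries (Pearson's r = 0.61, permutation p = 0.0384, adjusted over the 9 genes 0.224, and Spearman's rho = 0.73, permutation p = 0.00974, adjusted 0.0877). Without the 2 libraries farthest in that share r was 0.56, and it was 0.82 within the libraries labelled TAAR5-KO and 0.42 within those labelled WT. Tacr1 gave r = 0.57 with that share (permutation p = 0.0499, adjusted 0.224) and rho = 0.52 (permutation p = 0.0892, adjusted 0.268), and Pdyn r = 0.50 (permutation p = 0.101, adjusted 0.304) and rho = 0.61 (permutation p = 0.0392, adjusted 0.176). Without the same 2 libraries r was 0.54 for Tacr1 and 0.62 for Pdyn. None of the 9 genes passed 0.05 after adjustment. The part of ribosomal RNA in these differences was not tested further.

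Oprm1, the receptor through which morphine acts (chr10:6708506-6988198, plus strand), ranged from 1.18 to 3.07 CPM with a median of 1.66 under TAAR5-KO and from 0.965 to 1.86 with a median of 1.73 under WT. The medians thus lay in the opposite order to the means, 1.83 ± 0.711 and 1.55 ± 0.388, and the highest library, NK5, was labelled TAAR5-KO. The log2 fold change was 0.22 (SE 0.25, edgeR adjusted p = 0.793), and it was -0.06 without NK5, 0.35 without NK6 and 0.14 without NK11. Oprm1 shared 96 of its 8037 exon bases with Ipcef1 on the opposite strand, and although the libraries were directional, whether strand was used in counting was not given in the sources used here.

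Oprd1, a receptor for enkephalins (chr4:131838037-131871797, minus strand), ranged from 0.882 to 1.88 CPM with a median of 1.58 under TAAR5-KO and from 0.986 to 1.81 with a median of 1.29 under WT. Its log2 fold change was 0.12 (SE 0.22, 95% interval -0.30 to 0.55, edgeR adjusted p = 0.880), and 0.09 without NK11, 0.04 without NK8 and 0.25 without NK5. Both the lowest and the highest library were labelled TAAR5-KO.

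Oprl1, the receptor for nociceptin (chr2:181356809-181362778, plus strand), had nearly equal medians, 1.93 CPM (1.61 to 2.61) under TAAR5-KO and 1.92 (1.21 to 2.74) under WT. Its log2 fold change was 0.02 (SE 0.17, 95% interval -0.31 to 0.35, edgeR adjusted p = 0.979) and 0.01 without NK11. The 4 opioid receptors together summed to 1.66 ± 0.211 CPM per kilobase under TAAR5-KO and 1.46 ± 0.232 under WT, a mean log2 difference of 0.19, and 0.15 without NK11.

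Tacr1, the receptor of substance P (chr6:82379315-82537085, plus strand), ranged from 1.54 to 2.61 CPM with a median of 1.96 under TAAR5-KO and from 1.09 to 2.17 with a median of 1.64 under WT. NK11 and 1 other library labelled WT lay below all those labelled TAAR5-KO. The log2 fold change was 0.35 (SE 0.20, 95% interval -0.03 to 0.74, edgeR adjusted p = 0.480) and 0.30 (SE 0.21, adjusted p = 0.718) without NK11. With the share of ribosomal RNA as a covariate it was 0.24 (SE 0.20, adjusted p = 0.775), and without NK12 it was 0.22.

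Tacr3, the receptor of neurokinin B (chr3:134534768-134640340, plus strand), was the most variable of the 9 genes under the label TAAR5-KO, from 0.313 to 1.22 CPM with a median of 0.825 and a coefficient of variation of 43.5%. Under WT it ranged from 0.724 to 1.06 with a median of 0.998 and a coefficient of variation of 17.1%. Its log2 fold change was -0.23 (SE 0.28, 95% interval -0.77 to 0.31, edgeR adjusted p = 0.800) and -0.19 without NK11, and it was -0.06 without NK6 and -0.44 without NK5. A count of 3 amounted to 0.0679 to 0.362 CPM depending on the library.

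Ratios of a pair of genes in the same library do not depend on the scaling, and 6 were compared between the labels. The ratio of Penk to the D2 receptor gene Drd2, both of indirect pathway neurons, had a geometric mean of 6.39 under TAAR5-KO and 5.97 under WT (two-sided exact permutation test, p = 0.383, adjusted over the 6 ratios 0.535). Of the genes of direct pathway neurons, Tac1 stood to the D1 receptor gene Drd1 at 0.745 and 0.804 in the whole tissue (exact permutation p = 0.396, adjusted 0.535). Pdyn stood to Drd1 at 0.325 and 0.402 (exact permutation p = 0.0779, adjusted 0.468). Here 5 of the 6 libraries labelled TAAR5-KO lay between 0.296 and 0.329, the other at 0.423. Of those labelled WT, NK7 (0.308) and NK8 (0.325) lay in the same band, and the others ranged from 0.400 to 0.549. The log2 difference in Pdyn over Drd1, -0.31, was below 0 whichever library was left out, from -0.38 to -0.22. In TMM scaling Drd1 stood at 16.2 ± 2.50 and 12.0 ± 2.80 CPM, a log2 fold change of 0.44 (SE 0.15, edgeR adjusted p = 0.141) that did not pass the test with all 12 libraries. It was 0.32 (edgeR adjusted p = 0.306) without NK11 and 0.34 (adjusted p = 0.445) with the share of ribosomal RNA as a covariate, it passed without NK6 or without NK9, and it was -0.09 when scaled by library size alone.

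Among the precursors themselves, Pdyn over Penk was 0.0609 and 0.0659 (exact permutation p = 0.517), Tac1 over Penk 0.139 and 0.132 (p = 0.535) and Tac1 over Pdyn 2.29 and 2.00 (p = 0.299), each with an adjusted p of 0.535 in the same exact test. The smallest p this design allowed was 0.00216. Without NK11, the log2 difference in Tac1 over Penk was 0.01 in place of 0.08, and that in Pdyn over Drd1 was again -0.31.

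**Figure D4:**
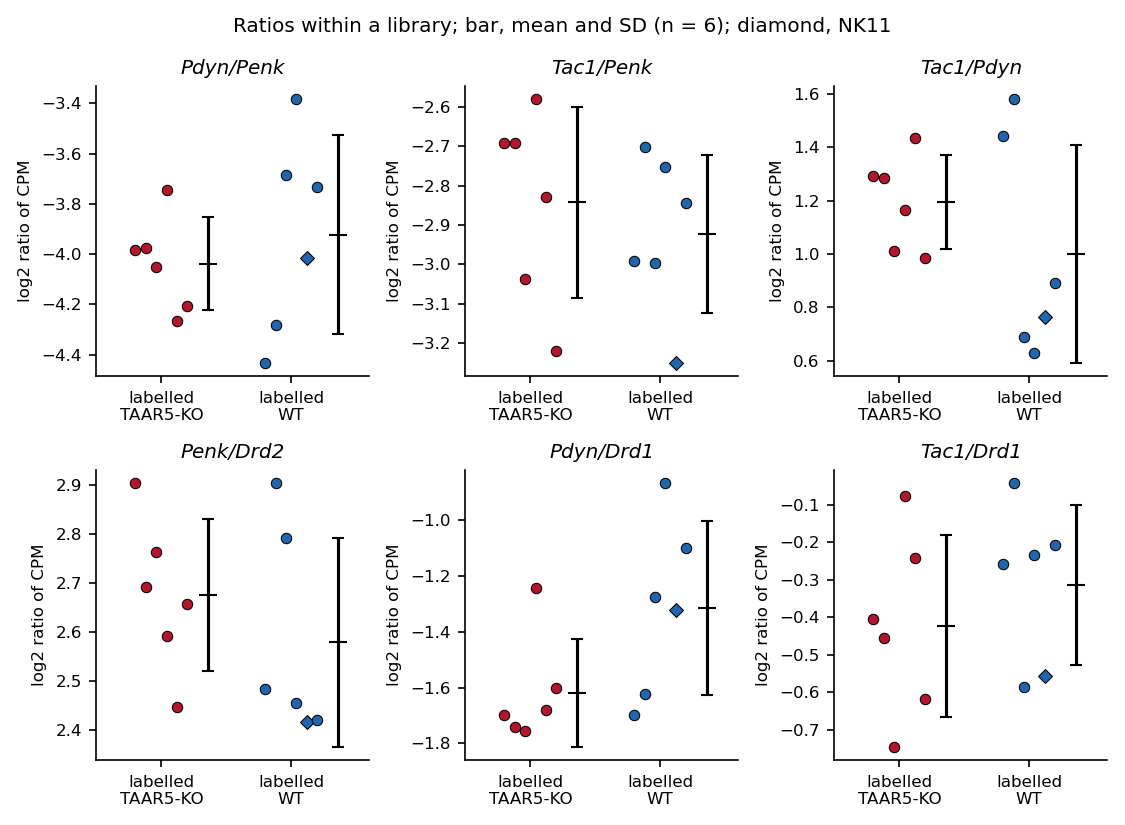
Ratios within each library on a log2 scale, for 3 pairs of precursors and for 3 pairs of a precursor and a dopamine receptor gene, with the mean and SD of each label (n = 6) and NK11 as a diamond. The labels overlap in all 6 panels. For Pdyn over Drd1 5 of 6 libraries labelled TAAR5-KO lie together below the sixth, with NK7 and NK8, labelled WT, at the same level.

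Across the 12 libraries Penk and Tac1 varied together, although each is made mainly by a different class of spiny neuron. Their log2 levels correlated with r = 0.92 (permutation p = 0.00045, adjusted over 8 pairs 0.0036) and rho = 0.83 (permutation p = 0.00165, adjusted 0.0132). Tac1 and Drd1 gave r = 0.86 (permutation p = 0.00198, adjusted 0.00792) and rho = 0.71 (p = 0.0126, adjusted 0.0504). Penk and Drd2 gave r = 0.76 (permutation p = 0.0181, adjusted 0.0290) and rho = 0.34 (p = 0.277, adjusted 0.328). By r, 6 of the 8 pairs passed an adjusted p of 0.05, whereas by rho only Penk with Tac1 did. For each pair, the 2 libraries farthest from the median of its first-named gene were then left out, of which NK11 was always 1. Without them r fell to 0.64 for Penk with Tac1, 0.56 for Tac1 with Drd1, 0.39 for Penk with Drd2 and 0.14 for Penk with Pdyn. In this setting 0 of the 8 pairs passed after adjustment. Such a cut narrows the range of that gene and leaves fewer libraries, so a lower r and fewer passes are partly built in. For Penk with Tac1 the unadjusted permutation p was then 0.0450 and the adjusted p 0.248. Within the libraries labelled TAAR5-KO the r of Penk with Tac1 was 0.77 (exact permutation p = 0.0736), that of Pdyn with Tac1 0.84 (exact permutation p = 0.0333) and that of Penk with Pdyn 0.73 (exact permutation p = 0.1). The r of Penk with Tac1 within those labelled WT, which include NK11, 0.97 (exact permutation p = 0.0278), and after adjustment 0 of the 8 pairs passed within either label. A precursor and a receptor for its peptides gave r = 0.38 for Penk and Oprm1 (permutation p = 0.224, adjusted 0.255, rho = 0.33, permutation p = 0.296, adjusted 0.328), and r = 0.33 for Pdyn and Oprk1 (permutation p = 0.299, adjusted 0.299, rho = 0.31, permutation p = 0.328, adjusted 0.328). Without the 2 farthest libraries these were 0.30 and 0.38, and differences between correlations were not tested. With library size as the only scaling all 8 pairs passed (r = 0.82 to 0.99). Without the TMM factors, which ran from 0.375 to 2.47, genes outside ribosomal RNA rise and fall together, so this count says nothing about the pairs.

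**Figure D5:**
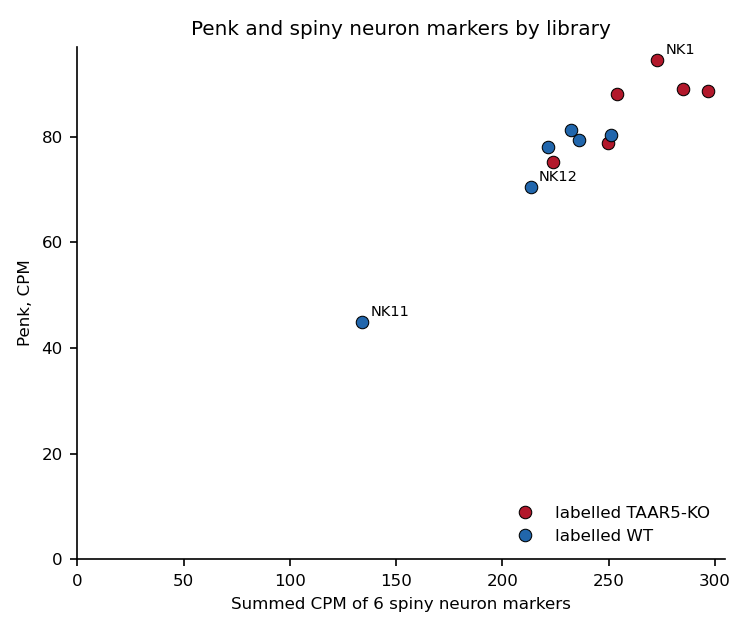
Penk in each library in CPM against the summed CPM of 6 spiny neuron markers, with red points for libraries labelled TAAR5-KO and blue for those labelled WT. NK11, at 134 CPM of markers and 44.9 CPM of Penk, lies apart from the other 11 libraries, which span 213 to 297 and 70.5 to 94.5.

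In NK11 the low levels were shared by the precursors and the spiny neuron markers of both pathways. The 6 markers of D1 spiny neurons summed there to 21.5 CPM against 27.5 to 37.8 in the other libraries, and the 7 of D2 spiny neurons to 26.3 against 33.2 to 41.4. No receptor was lowest there, but Oprk1, Oprm1 and Tacr1 were next to lowest. Oprk1 was at 2.73 CPM against 2.72 to 6.25 in the others, Oprm1 at 1.16 against 0.965 to 3.07 and Tacr1 at 1.25 against 1.09 to 2.61. Oprd1 was at 1.20 against 0.882 to 1.88, Oprl1 at 1.90 against 1.21 to 2.74, and Tacr3, at 1.06, was below only 1 library. The summed markers of cholinergic interneurons, 4.95 CPM, were next to lowest in NK11, and those of GABA interneurons, 34.2 CPM, lay inside the range of the others, 31.6 to 38.4.

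The features whose log2 levels followed each gene most closely over the 12 libraries were named as a description, since all share depth, scaling and NK11. Those nearest to Penk were Rgs9 (r = 0.98), a regulator of G protein signalling enriched in the striatum, Pde10a (r = 0.97), the phosphodiesterase of spiny neurons, and Strn (r = 0.97), which codes for striatin. Nearest to Tac1 were Penk itself (r = 0.92), Rgs9 (r = 0.91) and Tbc1d8 (r = 0.91), whereas Pdyn was followed by Lingo3 (r = 0.90), Ddrgk1 (r = 0.87) and Klhl17 (r = 0.86), none of them a spiny neuron marker listed here. For the receptors, most of the nearest features had low counts. Oprk1 was followed by Rsf1, Gm22009 and Bbs9 (r = 0.93 each), Oprm1 by Slc22a5 (0.81), Cdh13 (0.80) and Prim1 (0.79), and Oprd1 by Atp8b2 (0.90), Gm28175 (0.86) and Fcsk (0.84). Oprl1 was followed by Traf3ip2 (0.93), Angpt1 (0.88) and Abhd14a (0.88), Tacr1 by Gm44240 (0.98), Gm42991 (0.91) and Dtwd2 (0.91), and Tacr3 by Mlc1 (0.90), an astrocyte membrane protein gene, Rimkla (0.89) and Gpx8 (0.88).

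Of 74 further genes of peptide synthesis, release, degradation and signalling, 70 could be tested and 1 was called, Pcsk1n, which codes for proSAAS, an inhibitor of prohormone convertase 1. It fell from 22.2 ± 3.83 CPM under WT to 16.9 ± 2.45 under TAAR5-KO (log2 fold change -0.41, SE 0.12, edgeR adjusted p = 0.0724), with 4 libraries labelled WT above all those labelled TAAR5-KO. The call held under 4 of 13 other settings (DESeq2, adjusted p = 0.0420, and 3 other filters or size factors) and was lost under the others, among them the edgeR quasi-likelihood test (adjusted p = 0.165), the GC trend removed (adjusted p = 0.273) and the share of ribosomal RNA as a covariate (adjusted p = 0.293). It was also lost when any 1 of 7 libraries (NK1, NK2, NK5, NK7, NK8, NK11 or NK12) was left out, with an adjusted p of 0.233 without NK11. Of all features 0.691% were called lower and 0.957% higher. Among the 9 prohormone processing genes 2 values were above 0 and 7 below, from Pcsk1n up to Pcsk2, the convertase that completes the cutting of the enkephalin and dynorphin precursors, at 0.15 (SE 0.14, adjusted p = 0.738, edgeR).

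Other ligands and receptors of these families were sparse. Of 7 listed, 4 could be tested, with values from -0.53 (SE 0.34) for Tac2, the neurokinin B precursor, to 0.06 (SE 0.17) for Ogfr, the opioid growth factor receptor. Pomc, the precursor of beta-endorphin, was not tested, and its counts were 73 in NK11, 10 in NK12 and at most 3 elsewhere. Tac4 and Tacr2 had at most 2 counts in any library.

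Of the peptidases and other degradation genes 10 of 11 could be tested, with 3 values above 0 and 7 below. The edgeR likelihood ratio test called 0 of them, against 1.65% of all features. They ran from -0.80 (SE 0.32) for Anpep, which codes for aminopeptidase N, to 0.30 (SE 0.16, and 0.20 without NK11) for Mme, which codes for neprilysin, both of which degrade enkephalins. The 10 genes of dense-core vesicles, in which peptides are stored, ran from -0.09 for Scg3 to 0.18 for Cadps2, and 6 lay above 0. The 11 regulators of opioid receptors ran from -0.26 (SE 0.16) for Grk2, a receptor kinase, to 0.41 (SE 0.17, edgeR adjusted p = 0.275) for Rgs9, which was 0.27 (adjusted p = 0.442) without NK11. The 10 effectors ran from -0.26 (SE 0.09, edgeR adjusted p = 0.133) for Gnai2, an inhibitory G protein subunit, to 0.21 (SE 0.11) for Cacna1b, the N-type calcium channel. No gene of these 3 groups was called by the edgeR likelihood ratio test with all 12 libraries, against the same 1.65% of all features. Gnai2 passed by DESeq2 and without NK4.

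The 8 regulators of precursor transcription ran from -0.29 (SE 0.20) for Fosb to 0.73 (SE 0.33, edgeR adjusted p = 0.325) for Nr4a1, an immediate early gene that passed only without NK12, with 6 above 0. The 8 other striatal neuropeptide genes ran from -0.52 (SE 0.33) for Nts, the neurotensin precursor, to 0.25 (SE 0.15) for Npy, with 2 above 0 and 6 below. In both groups 0 genes were called by the edgeR likelihood ratio test, against 1.65% of all features, so a 0 in lists this short sets neither group apart.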

How the data were processed

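The authors deposited raw counts per gene. Per the labels and methods, reads were trimmed with cutadapt 4.1, aligned to GRCm39 with STAR 2.7.11b and counted with featureCounts 2.0.6, and the strand setting was not given in the sources used here. A further 12 columns of the table matched no sample and were not used. Genes and gene lists were chosen with earlier results of these data known.

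Features with at least 0.5 CPM, here without TMM factors, in at least 3 libraries were kept. They were scaled by TMM and fitted in edgeR 4.0.16 (R 4.3.3) with the likelihood ratio test used by the study, with a call where the Benjamini-Hochberg adjusted p was under 0.1. CPM given in the results were TMM-scaled. Correlations used log2 CPM with a prior count of 2, and ratios and the order of levels used log2 CPM without one. Ratios, the order of levels and correlations were tested by exact tests or 100000 permutations, two-sided. A test of summed levels was planned but the sums are given without p, as sums over chosen genes. Scripts were tested on simulated data. One marker of spiny neurons is not reported here and was left out of their sum. Named besides the 9 genes were called pathway genes, otherwise the highest and lowest of each list, and the 3 features nearest to each gene. Alternatives were the edgeR quasi-likelihood test, DESeq2 1.42.0, other filters and scalings, ribosomal RNA, GC content and gene length terms and leaving out each library. TMM factors from all features were added after seeing the data.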

Additional observations from a re-analysis of the deposited data

Results flagged for a closer look

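In each label group of 6 libraries, a library was marked when its gap to the nearest other, divided by the range of the group, exceeded the 95% critical value of Dixon, which chance does in about 1 of 20 groups. Of 36 groups, 4 were marked, 3 of them by the library NK11 among those labelled WT. Penk stood there at 44.9 CPM against 70.5 to 81.3 in the other libraries labelled WT, and Tac1 at 4.72 CPM against 9.82 to 12.5. The summed level of the 3 precursors, which is mostly Penk, was 29.8 CPM per kilobase in NK11 against 47.9 to 54.9. The fourth was the ratio of Pdyn to Drd1 in NK4, labelled TAAR5-KO, at 0.423 against 0.296 to 0.329 in the others of that label.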

How the results depend on the processing

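No paired analysis was possible because the columns carry no animal numbers. None of the 9 genes was called under any alternative, leaving out a library included, where the lowest adjusted p was 0.103 for Oprk1 without NK9 (edgeR). The number of features called, 229, was 63 by the quasi-likelihood test, 7 with library size as the only scaling, 93 without a filter, 108 at an adjusted p under 0.05, 98 with the share of ribosomal RNA as a covariate, 106 with the GC trend removed, and 85 (without NK11) to 415 (without NK4) leaving out 1 library. Scaling by library size alone took the share called higher from 58.1% to 0%, and turned the log2 fold change to -0.25 for Penk, -0.33 for Pdyn, -0.21 for Tac1, -0.26 for Oprm1, -0.45 for Oprd1, -0.11 for Oprk1, -0.40 for Oprl1 and -0.19 for Tacr1, and the differences in the sums of precursors and opioid receptors to -0.24 and -0.32. That of Oprl1 was also -0.0088 without a filter and -0.0097 with TMM factors from all features. Library size scaling also turned Ogfr to -0.41, Pcsk2 to -0.48, Mme to -0.15, Cadps2 to -0.40, Rgs9 to -0.078, Cacna1b to -0.34, Npy to -0.31, Drd1 to -0.093 and Calb1 to -0.041, and the ribosomal RNA covariate turned Ogfr to -0.0045. Leaving out 1 library, Oprl1 ranged from -0.10 to 0.092, Oprm1 from -0.057 (without NK5) to 0.35, Oprd1 from 0.043 to 0.25 and Tacr3 from -0.44 to -0.056. Of 8 correlated pairs, 6 passed with all libraries, 0 without the 2 libraries farthest in the first gene, 0 within TAAR5-KO and 0 within WT. Each of these cuts leaves fewer libraries, and the first can itself lower r. Apart from the scaling, whose construction moves all features, the cause of these changes was not tested. The receptors had 4 to 129 counts per library.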

Other observations

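Markers of the compartments of the striatum were read beside the 9 genes. Of the 5 markers of the matrix, 1 was called, Calb1, the calbindin gene, at 22.1 ± 1.28 CPM under the label TAAR5-KO and 16.5 ± 1.89 under WT (log2 0.43, SE 0.09, edgeR adjusted p = 0.000704), which was 0.25 (adjusted p = 0.259) with the GC trend removed and -0.04 with library size as the only scaling, while it was called with each of the 12 libraries left out in turn. In TMM scaling all 5 matrix markers had a log2 fold change above 0, as had 48.9% of all features. They summed to 115 to 144 CPM under TAAR5-KO and 99.6 to 119 under WT. Of the 6 markers of striosomes, the compartment rich in mu opioid receptors, 0 were called (edgeR likelihood ratio test), with 1 above 0 and 5 below. Their summed level ranged from 26.6 to 41.5 CPM under TAAR5-KO and from 30.4 to 40.6 under WT. Of 6 markers of all spiny neurons 0 were called, and their values had a median of 0.34 in TMM scaling with NK11 included. Of all features tested 1.65% were called, 0.957% of them all as higher under TAAR5-KO. Counts of 0 or 1 in lists this short therefore do not set the compartments apart, and whether the lists differ in direction was not tested.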
